A study of Homo sapiens with 30 samples.

Results

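At 6 h, H1299 cells with p53 TM showed a small rise of part of the p53 target programme over cells with pGFP, and also a rise, mostly under 2-fold, of a group of genes that wild type p53 did not raise. H1299 is an established human lung carcinoma line that has no p53 of its own. TM, transcriptional mutagenesis, is the insertion of a wrong ribonucleotide by RNA polymerase at a DNA lesion, here an O6-methylguanine (O6-meG) in the transcribed strand of a wild type p53 coding sequence. The polymerase inserts either cytidine, which gives wild type p53 mRNA, or uridine, which gives the mRNA of the RW mutant p53, so that 1 vector yields a mixture of both proteins. Cells can remove the lesion with AGT, the protein of the *MGMT* gene, and O6-benzylguanine (O6-bzG) inactivates AGT.

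The comparison rested on 6 of the 30 libraries of the study, 3 with p53 TM and 3 with pGFP, all from total RNA 6 h after transfection. The p53 TM cultures received 10 µM O6-bzG and the vector with the lesion. The pGFP cultures received a vector with GFP and no p53 gene, and no O6-bzG. The RW mutant p53 and wild type p53 cultures (3 libraries each) received vectors without the lesion and no O6-bzG, and the p53 O6-meG cultures (3 libraries) received the lesion vector without the inhibitor. O6-bzG was thus given only with TM, and an effect of the inhibitor and an effect of TM cannot be told apart by these groups. Every vector expressed GFP from a promoter of its own, the p53 genes had a TRE-tight promoter, and GFP-positive cells were sorted from transiently transfected cultures. All groups were the same cell line.

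The titles of 2 libraries at 6 h conflicted. Replicate 2 of p53 TM was placed by the first part of its title and by its column name in the count table, whereas the parentheses of its title and its genotype label name p53 O6-meG. Replicate 2 of p53 O6-meG carried the mirror image of this conflict. *CDKN1A*, the gene of the cell cycle inhibitor p21, stood at 50 CPM (counts scaled to the library size) in replicate 2 of p53 TM and at 65.7 and 57.7 CPM in replicates 1 and 3. It stood at 249 CPM in replicate 2 of p53 O6-meG and at 268 and 261 CPM in the other p53 O6-meG libraries. The results are therefore given with and without replicate 2 of p53 TM, and with the labels exchanged.

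The TM libraries held 43217874 to 58180943 counts and the pGFP libraries 46752114 to 58732541, and the mitochondrial share was 0.12% to 0.35% in these 6 libraries. The epithelial and mesenchymal markers of the line were present in all of them, *KRT8* at 135 to 160 CPM, *KRT18* at 577 to 647 CPM and *VIM* at 2940 to 3410 CPM. Of the markers of other cell types, *PTPRC* had no count, *PECAM1* at most 8 counts and *ALB* at most 21 counts in a library. *HBB*, a haemoglobin gene, was at 542 to 598 CPM in pGFP and at 255 to 346 CPM in p53 TM (log2-fold -0.89, edgeR adjusted *P* = 0.46), and its part in the results was not tested.

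p53 is a transcription factor that binds DNA as a tetramer at sites made of a pair of half-sites. It raises genes that halt the cell cycle, repair DNA, alter metabolism or start apoptosis, and also its own inhibitors, such as *MDM2*, in a feedback loop. RW mutant p53 is altered in the DNA-binding domain and can join a tetramer with wild type subunits.

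*MGMT* was at 14.7, 13.4 and 11.3 CPM in p53 TM and at 14.4, 12.9 and 11.5 CPM in pGFP. The 2 groups overlapped (log2-fold 0.02 ± 0.11, SE, adjusted *P* = 0.98).

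In the fit of 20875 genes by edgeR's quasi-likelihood test, 14 genes were differentially expressed genes (DEGs, Benjamini-Hochberg adjusted *P* below 0.05 and at least 2-fold), or 0.0671% of the genes tested. Of these DEGs, 12 were raised and 2 lowered. Without a limit on the fold change, 56 genes were raised (0.268%) and 10 lowered (0.0479%), and 1671 genes had an unadjusted *P* below 0.05. The same replicate numbers deviated together in the TM and pGFP groups, and with the replicate number as a block 109 genes passed in place of 66, among them all 66. The number at adjusted *P* below 0.05 fell to 31, 44 and 33 without TM replicate 1, 2 and 3, and to 34, 26 and 33 without pGFP replicate 1, 2 and 3. Without TM replicate 2, the library with the conflicting title, 40 of the 66 genes still passed and 15 genes were DEGs, 11 of them among the 14. Without TM replicate 3, 8 of the 14 DEGs were left. When the 2 libraries were exchanged by the parentheses of their titles, 17 genes passed, all among the 66, and 14 were DEGs, 8 of them shared. With RW mutant p53 against pGFP, 1 gene was past the threshold (0.00479% of genes) by edgeR, and 213 genes had an unadjusted *P* below 0.05.

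Among the genes described here, the largest rises were at the *MIR34A* locus on chromosome 1. *MIR34AHG* (chr1:9148011-9198906, minus strand, hg38) is the host transcript of the microRNA miR-34a, which represses cell cycle and survival mRNAs. It had 5, 4 and 5 counts in the pGFP libraries and 311, 447 and 594 counts in p53 TM. On the CPM scale the TM libraries stood at 7.01, 11 and 10.6, the RW libraries at 0.0797, 0.150 and 0.0589, and the wild type libraries at 32.9, 29.6 and 34.6. The TM libraries did not overlap with either control (log2-fold 6.66 ± 0.45, SE, edgeR adjusted *P* = 3.2e-10), and the TM level was lower than that with wild type p53 (log2-fold -1.76 ± 0.25, SE, adjusted *P* = 7.7e-06). In bulk RNA from sorted cells, such an intermediate level in every cell and a higher level in fewer cells cannot be told apart. The antisense transcript *LNCTAM34A* (chr1:9182004-9196284, plus strand) had no count in any pGFP library and 17, 25 and 55 counts in p53 TM, which is at least 11.1-fold higher against a floor of 3 counts per library. Against the same floor, wild type p53 gave a level at least 29.2-fold higher. The exons of *MIR34AHG* and *LNCTAM34A* overlap on opposite strands, and without a stated strand setting of the counting the reads in the overlap cannot be told apart. The libraries measured the host RNA and not the mature microRNA. The mature sequences are shown because they are the product of this host transcript. They are from RefSeq (GRCh38.p14, minus strand, chr1:9151735-9151756 and chr1:9151693-9151714), with the seed (bases 2 to 8) in capitals:
hsa-miR-34a-5p: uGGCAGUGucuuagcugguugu
hsa-miR-34a-3p: cAAUCAGCaaguauacugcccu

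The promoter of *LNCTAM34A* and the first bases of *DDB2*, the gene of a damage-recognition subunit of nucleotide excision repair, each held a pair of adjoining p53 half-sites. RefSeq promoters (250 bases before to 50 after the start, GRCh38.p14) were found by symbol for 45 of the 66 genes past the threshold. The canonical p53 half-site of 10 bases, which reads alike on both strands, was present in 9 of these 45 genes (20%) and in 6.64% of all 35097 promoters. A gene was counted if any of its promoters held a site, whereas the 35097 were counted promoter by promoter. Genes with several promoters thus had more chances, and the shares of genes and of promoters are not on the same scale. Of the genes that TM raised to a level below that with wild type p53, 7 of 17 held it (41.2%), and of those raised above the wild type level 1 of 15 (6.67%), *GABARAPL1*. A pair of half-sites at most 13 bases apart was found in 2 of the 45 genes and in 10 of the 35097 promoters (0.0285%). A match is a description of letters and was not measured as p53 binding here. The windows below show the pairs first and then single half-sites of 4 raised targets, each 5′ to 3′ on the gene's strand with the half-sites in capitals:
LNCTAM34A: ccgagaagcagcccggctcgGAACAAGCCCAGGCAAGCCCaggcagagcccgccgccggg
DDB2: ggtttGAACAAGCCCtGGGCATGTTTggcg
AEN: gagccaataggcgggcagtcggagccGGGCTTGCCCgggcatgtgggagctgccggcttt
FDXR: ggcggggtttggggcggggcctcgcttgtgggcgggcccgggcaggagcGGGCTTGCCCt
SESN1: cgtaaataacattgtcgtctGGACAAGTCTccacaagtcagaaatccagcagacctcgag
RPS27L: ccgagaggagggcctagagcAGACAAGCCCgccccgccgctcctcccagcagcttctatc

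The *LNCTAM34A* window was chr1:9182124-9182183 (plus strand), with half-sites from -60 to -51 and from -50 to -41 relative to the start. The *DDB2* window was chr11:47214974-47215003 (plus strand), with half-sites from 6 to 15 and from 17 to 26. The window of *AEN* was chr15:88621280-88621339 (plus strand), that of *FDXR* chr17:74872995-74873054 (minus strand), that of *SESN1* chr6:109008998-109009057 (minus strand) and that of *RPS27L* chr15:63157497-63157556 (minus strand).

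Several other DEGs were known p53 targets. *PHLDA3*, an inhibitor of AKT signalling, had 0, 0 and 2 counts in pGFP and 25, 31 and 53 in p53 TM, a ratio of 59 (95% interval 15.9 to 493, counting error only). *GDF15*, a secreted stress cytokine, rose from 0.283, 0.240 and 0.192 CPM to 0.970, 0.884 and 1.18 CPM (log2-fold 2.10 ± 0.29, SE, edgeR adjusted *P* = 0.00011), and *BTG2*, an antiproliferative regulator of mRNA decay, from 2.20, 2.16 and 2.25 CPM to 6.74, 6.80 and 8.86 CPM (log2-fold 1.76 ± 0.16, SE, adjusted *P* = 1.8e-07). In each of these 3 genes every TM library lay above every pGFP and RW library and below every wild type library. With wild type p53, *GDF15* was at 15.4 to 18.0 CPM and *BTG2* at 89.3 to 101 CPM. *FDXR*, a mitochondrial ferredoxin reductase, was at 13, 12.0 and 12.3 CPM in pGFP and at 25.9, 30.1 and 37.5 CPM in p53 TM (log2-fold 1.32 ± 0.18, SE, adjusted *P* = 0.00011). *ACTA2*, smooth muscle actin, was at 2.58, 2.42 and 2.57 CPM in pGFP and at 4.20, 5.87 and 6.15 CPM in p53 TM (log2-fold 1.10 ± 0.19, SE, adjusted *P* = 0.0037). Its exons overlap those of *FAS* on the opposite strand. A gene without a symbol in the annotation, ENSG00000253878.5, rose likewise (log2-fold 1.78 ± 0.23, SE, adjusted *P* = 7.8e-05), from 0.393 to 0.464 CPM to 1.22 to 1.62 CPM.

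The other DEGs had low counts. *NGFR*, a neurotrophin receptor, was at 0.722, 1.30 and 0.820 CPM in p53 TM and at 0.364, 0.284 and 0.279 CPM in pGFP (log2-fold 1.60 ± 0.34, SE, edgeR adjusted *P* = 0.029), and without TM replicate 2 it no longer passed (adjusted *P* = 0.21). *ARC*, a synaptic immediate early gene, rose by a log2-fold of 1.13 ± 0.24 (SE, adjusted *P* = 0.035). Wild type p53 raised both, *ARC* by a log2-fold of 1.58 ± 0.23 (SE, adjusted *P* = 1.3e-05) and *NGFR* by 1.56 ± 0.33 (SE, adjusted *P* = 0.0015). *DLL4*, a Notch ligand, was raised with TM (1.15, 1.25 and 1.19 CPM against 0.404, 0.611 and 0.524 CPM, adjusted *P* = 0.036) and stood at 0.386 to 0.442 CPM with wild type p53. The lowered DEGs were *RGS4*, a regulator of G protein signalling (log2-fold -1.76 ± 0.38, SE, adjusted *P* = 0.031), and *ASB2*, a subunit of a ubiquitin ligase (log2-fold -1.12 ± 0.20, SE, adjusted *P* = 0.0055). *RGS4* rested on 24, 25 and 25 counts in pGFP and 10, 3 and 7 in p53 TM. *DLL4* (adjusted *P* = 0.13) and *RGS4* (adjusted *P* = 0.2) did not pass without TM replicate 2. With the 2 libraries exchanged, *NGFR* (adjusted *P* = 0.54), *DLL4* (adjusted *P* = 0.72), *RGS4* (adjusted *P* = 0.44) and *ASB2* (adjusted *P* = 0.64) did not pass.

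**Figure D1:**
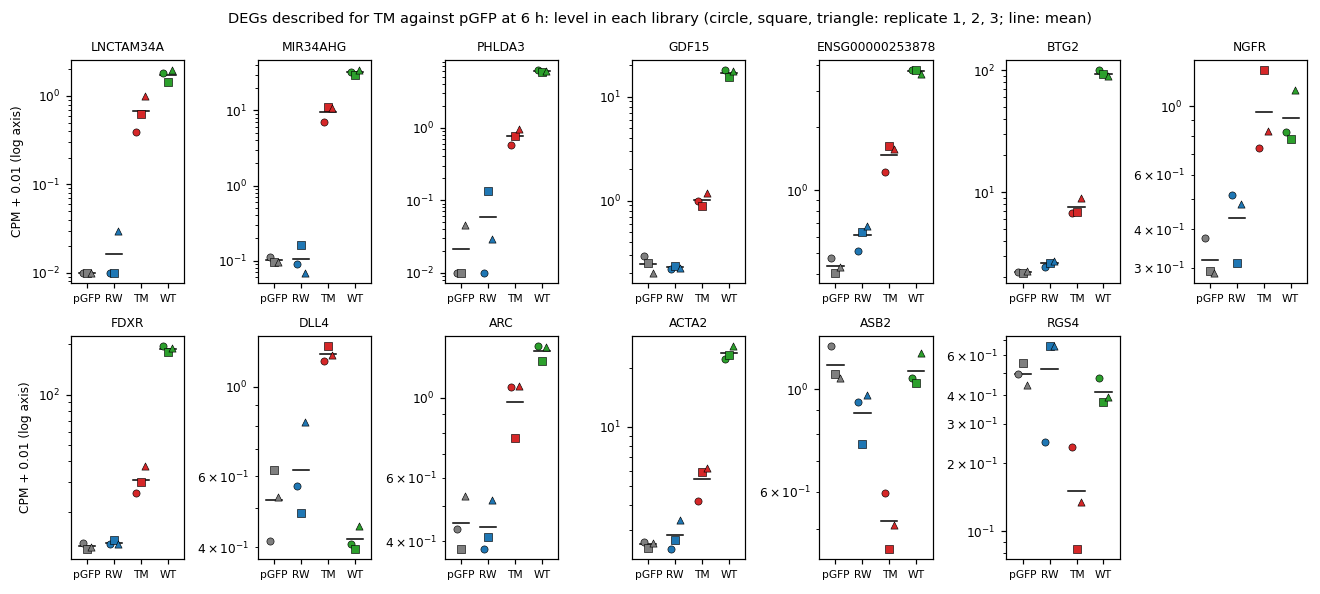
The DEGs of p53 TM against pGFP at 6 h that are described in the text, 1 panel a gene, with the level in each library as CPM plus 0.01 on a log axis and the mean as a line. In MIR34AHG, PHLDA3, GDF15 and BTG2 the 3 TM libraries sit between the pGFP and wild type libraries, whereas DLL4 is highest in TM, and ASB2 and RGS4 are lowest there.

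Across the p53 target lists, 18 of 62 targets tested were raised with TM, 5 of them at least 2-fold, and none was lowered by edgeR (at an unadjusted *P* below 0.05, 32 rose and 0 fell) or by DESeq2. The share raised among all genes was 0.268%. The median log2-fold over the 62 targets was 0.30 with TM and 1.69 with wild type p53, and 51 of the 62 were above 0 with TM. All 3 TM libraries lay above all 3 pGFP libraries in 41 of the 62 targets, and in 9.25% of all genes. Wild type p53 raised 54 of the 62, against 9.09% of all genes. RW mutant p53 raised 0 of the 62 by edgeR and by DESeq2 (median log2-fold 0.02), and 0 had an unadjusted *P* below 0.05. Without TM replicate 2, 14 of the 62 were raised with a median log2-fold of 0.31. With the 2 conflicting libraries exchanged by the parentheses of their titles, 9 were raised, 49 had an unadjusted *P* below 0.05, and the median log2-fold was 0.98.

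**Figure D2:**
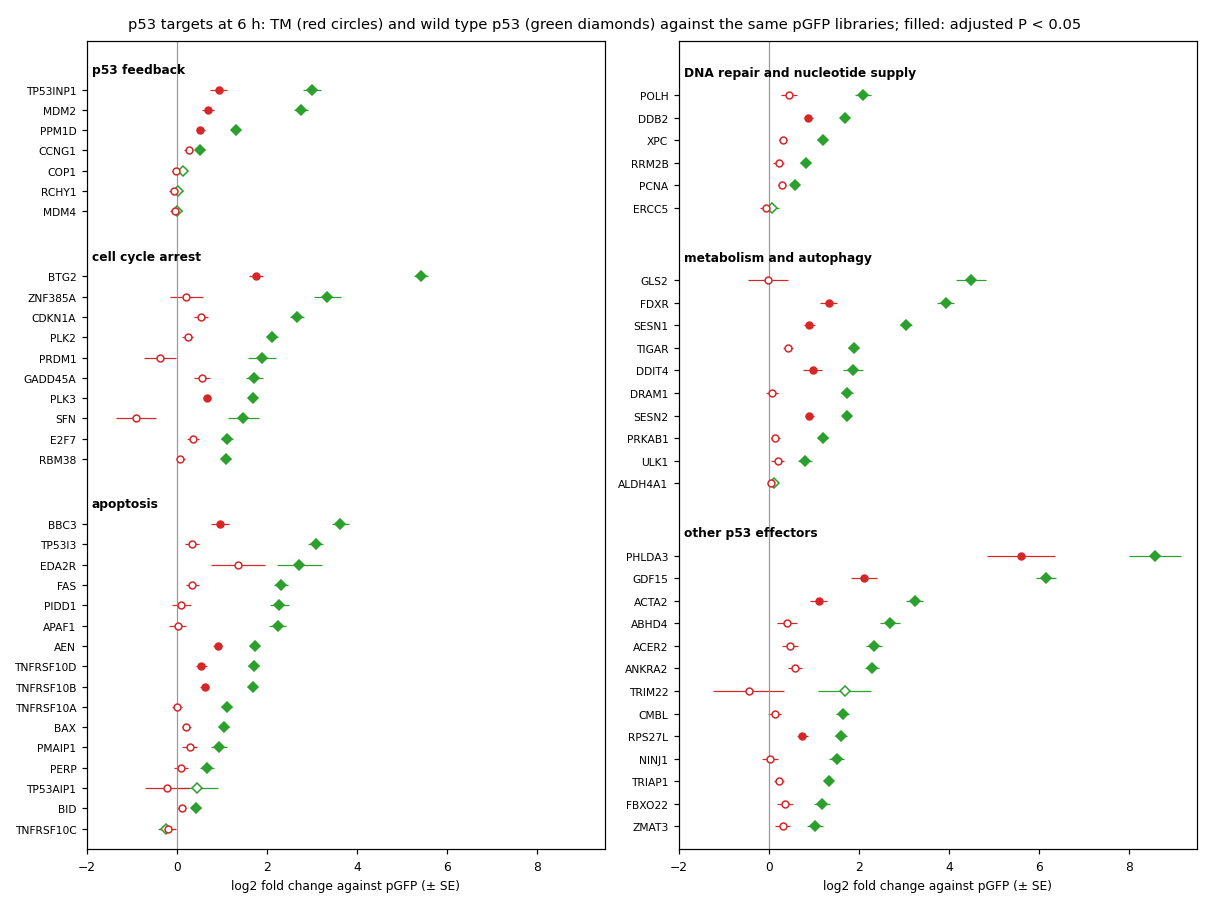
Log2 fold changes against the same 3 pGFP libraries at 6 h for 62 p53 targets in 6 lists, with p53 TM as circles, wild type p53 as diamonds, bars of 1 SE, and filled symbols at adjusted P below 0.05. The 18 filled TM circles are all to the right of 0, and the TM values lie left of the wild type values in 61 of the 62 genes.

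Of the feedback genes, 3 of 7 rose: *MDM2*, the ubiquitin ligase that degrades p53, *PPM1D*, a phosphatase that counters the damage response, and *TP53INP1*, a cofactor of p53. *MDM2* was at 186, 182 and 209 CPM in pGFP and at 286, 300 and 348 CPM in p53 TM (log2-fold 0.69 ± 0.14, SE, edgeR adjusted *P* = 0.025). With wild type p53 it reached 1240 to 1360 CPM. *PPM1D* rose by a log2-fold of 0.51 ± 0.10 (SE, adjusted *P* = 0.017) and *TP53INP1* by 0.93 ± 0.19 (SE, adjusted *P* = 0.025). When TM replicate 2 was left out, *MDM2* (adjusted *P* = 0.058) and *TP53INP1* (adjusted *P* = 0.063) missed the threshold, and *PPM1D* passed it (adjusted *P* = 0.011). With the 2 conflicting libraries exchanged, 0 of the 7 passed by edgeR (4 at an unadjusted *P* below 0.05), with adjusted *P* = 0.12 for *MDM2* and 0.069 for *PPM1D* and *TP53INP1*.

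Of the genes of cell cycle arrest, 2 of 10 rose, *BTG2* and *PLK3*, a stress-response kinase. *PLK3* was at 7.51, 7.37 and 7.63 CPM in pGFP and at 11.6, 11.5 and 12.6 CPM in p53 TM (log2-fold 0.67 ± 0.087, SE, edgeR adjusted *P* = 7.8e-05). *CDKN1A* was at 42.1, 34.0 and 43.7 CPM in pGFP and at 65.7, 50 and 57.7 CPM in p53 TM. The groups did not overlap, but the gene did not pass the test across all genes (log2-fold 0.53 ± 0.16, SE, adjusted *P* = 0.2). Wild type p53 raised all 10 genes of this list at least 2-fold, *CDKN1A* to 242 to 262 CPM. *ZNF385A*, second to *BTG2* in its rise with wild type p53 (log2-fold 3.34), had overlapping levels in p53 TM and pGFP (log2-fold 0.21 ± 0.37, SE, adjusted *P* = 0.94). Of 8 cell cycle genes known to fall through p21, 0 were lowered with TM by edgeR or DESeq2 (0 at an unadjusted *P* below 0.05) and 1 was raised, *CCNE2*, the gene of a cyclin of G1/S (log2-fold 0.48 ± 0.10, SE, adjusted *P* = 0.033, without TM replicate 2 adjusted *P* = 0.21). Wild type p53 at 6 h lowered 1 of these 8 genes by edgeR (median log2-fold -0.06), beside 378 of all 20875 genes. The lowered gene was *CCNE2* (log2-fold -0.44 ± 0.10, SE, adjusted *P* = 0.0037). With the 2 libraries exchanged, *BTG2* and *PLK3* still passed with TM and *CCNE2* did not (adjusted *P* = 0.62).

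Of the apoptosis genes, 4 of 16 rose. *AEN*, an apoptosis-enhancing nuclease, was at 77.5, 73.6 and 66.4 CPM in pGFP and at 140, 133 and 133 CPM in p53 TM (log2-fold 0.90 ± 0.10, SE, edgeR adjusted *P* = 5.3e-06). The death receptor gene *TNFRSF10B* was at 72.7, 68.7 and 69.2 CPM in pGFP and at 114, 98.1 and 110 CPM in p53 TM (log2-fold 0.61 ± 0.095, SE, adjusted *P* = 0.00083). The decoy receptor gene *TNFRSF10D* (log2-fold 0.54 ± 0.12, SE, adjusted *P* = 0.046) and *BBC3*, the gene of the BCL-2 antagonist PUMA (log2-fold 0.96 ± 0.20, SE, adjusted *P* = 0.029), also rose. *TNFRSF10D* missed the threshold without TM replicate 2 (adjusted *P* = 0.21). With the 2 libraries exchanged, *AEN* was the 1 gene of the 16 that passed, and *TNFRSF10B* (adjusted *P* = 0.069), *TNFRSF10D* and *BBC3* (adjusted *P* = 0.14 each) did not. *TP53I3* was at 19.5, 17.7 and 18.2 CPM in pGFP, at 22.2, 22.9 and 24.5 CPM in p53 TM and at 150 to 167 CPM with wild type p53, and did not pass with TM (log2-fold 0.33 ± 0.16, SE, adjusted *P* = 0.62). *APAF1*, the gene of the apoptosome scaffold, had overlapping levels in p53 TM (37.8, 38.7 and 43.0 CPM) and pGFP (38.7, 36.4 and 42.8 CPM) and was at 177 to 200 CPM with wild type p53.

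Among repair, metabolic and other targets, the rises under 2-fold were among those with the smallest *P*. *DDB2* was at 28.8, 27 and 26.4 CPM in pGFP and at 46.6, 50.3 and 53.1 CPM in p53 TM (log2-fold 0.87 ± 0.096, SE, edgeR adjusted *P* = 4.7e-06), and was the single gene of the 6 repair genes past the threshold. *POLH*, a translesion polymerase of the same list, did not pass (log2-fold 0.45 ± 0.18, SE, adjusted *P* = 0.46). Of the metabolism and autophagy genes 4 of 10 rose. *SESN2*, a stress-induced inhibitor of mTORC1, was at 31.3, 29.7 and 30.9 CPM in pGFP and at 60.6, 52.6 and 57.6 CPM in p53 TM (log2-fold 0.89 ± 0.097, SE, adjusted *P* = 3.4e-06). Its relative *SESN1* was at 27.7, 25.5 and 26.4 CPM in pGFP and at 47.7, 49.0 and 50.3 CPM in p53 TM (log2-fold 0.89 ± 0.12, SE, adjusted *P* = 0.00011). *DDIT4*, another inhibitor of mTORC1, rose (adjusted *P* = 0.041) with a wide spread, at 26.4, 12.5 and 15.7 CPM in p53 TM against 9.67, 8.49 and 9.72 CPM in pGFP. *GLS2*, a glutaminase, had overlapping levels in p53 TM and pGFP (log2-fold -0.03 ± 0.44, SE, adjusted *P* = 1) and stood at 16.9 to 20.8 CPM with wild type p53. Of the other effectors, 4 of 13 rose, *PHLDA3*, *GDF15*, *ACTA2* and *RPS27L*, the gene of a ribosomal protein-like regulator of MDM2 (log2-fold 0.74 ± 0.13, SE, adjusted *P* = 0.0056). *RPS27L* missed the threshold without TM replicate 2 (adjusted *P* = 0.051), which left 3 of the 13. With the 2 libraries exchanged, 1 of 6 repair genes, 3 of 10 metabolism and autophagy genes and 2 of 13 other effectors were raised, and *SESN1*, *GDF15* and *ACTA2* missed the threshold (adjusted *P* = 0.069 each).

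The targets differed in how far TM moved them. For genes that wild type p53 raised at least 2-fold, the level of each TM library was set on a scale of 0% at the pGFP mean and 100% at the wild type mean. Over the 47 such targets of the lists the median position was 10.8%, with medians of 9.2%, 7.7% and 13.7% in TM replicates 1, 2 and 3. *DDB2* stood at 37.4% ± 5.4 (SD, n = 3), *AEN* at 37.2% ± 2.4 and *SESN2* at 37.2% ± 5.7, and these 3 did not differ beyond their spread. *MIR34AHG*, which is in none of these lists, stood at 29.2% ± 6.8 and *PLK3* at 26.4% ± 3.4. *ARC* and *NGFR*, also in none of these lists and low in counts, stood at 58.7% ± 19.6 and 107.6% ± 52.2. *ARC* is, however, on the study's own list of high confidence p53 targets induced at 6 h. *SESN1* stood at 11.7% ± 0.7, *MDM2* at 10.8% ± 2.9, *CDKN1A* at 8.3% ± 3.7, *BTG2* at 5.7% ± 1.3, *GDF15* at 4.6% ± 0.9 and *TP53I3* at 3.5% ± 0.9. *BTG2* thus had a larger fold change with TM than *SESN1* and a lower position. Of the 47 targets, 14 stood over 20% and 13 under 5%, among the latter *APAF1* at 0.3% ± 1.9, the death receptor gene *TNFRSF10A* at -0.1% ± 4.6 and *SFN*, the gene of 14-3-3 sigma, at -25.1% ± 8.4. *SFN* was at 0.0737 to 0.135 CPM in p53 TM and 0.131 to 0.297 CPM in pGFP, so that its position rested on few reads. The pGFP and wild type means are ends of the scale for every gene, and the positions were described without a test.

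**Figure D3:**
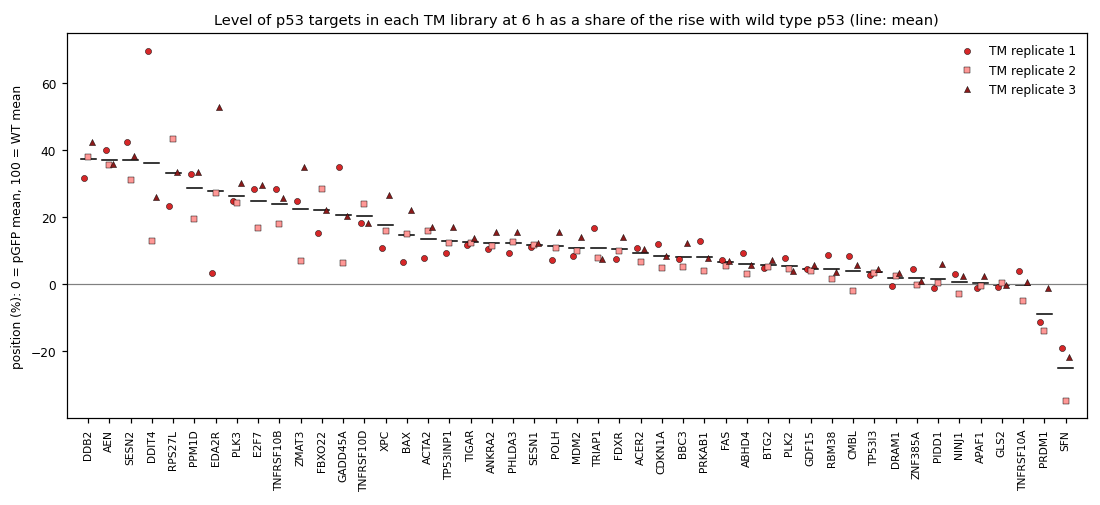
Position of each p53 TM library at 6 h for the 47 listed targets that wild type p53 raised at least 2-fold, in percent of the way from the pGFP mean (0) to the wild type mean (100), with symbols for replicates and lines for means. DDB2, AEN and SESN2 lead at 37.2% to 37.4%, 14 of the 47 targets lie over 20%, and the 3 replicates differ widely in DDIT4, EDA2R and GADD45A.

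The study lists high confidence p53 targets (HCGs) induced by wild type p53 at 6 h and, among its HCGs, an early and a continuous list named for when TM changed their induction. These lists were chosen on the same samples, so that the counts are no independent evidence of direction. The copies of the induced and the continuous lists used here are shorter than the study's own, and the genes missing from them were not analysed here. Of 123 HCGs induced at 6 h in the copy, 21 were raised with TM. The count was 16 without TM replicate 2 and 11 with the labels exchanged. Of 52 early genes 14 were raised (median log2-fold 0.33), and of 69 continuous genes 5 (median log2-fold 0.08), beside 0.268% of all genes. With the labels exchanged, 6 of the early and 3 of the continuous genes were raised. The median position was 10.1% for the early genes (8.4%, 7.3% and 12.4% in replicates 1, 2 and 3) and 1.7% for the continuous genes (1.9%, 0.3% and 2.9%). In each TM library the median of the early genes was higher than that of the continuous genes.

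By their level against wild type p53 (14.6% of all genes differed between TM and wild type p53 in either direction), the 56 raised genes fell into 3 groups. In 23 genes TM was lower than wild type p53. Since they were chosen above pGFP and below wild type p53, a rise with wild type p53 follows from the selection. All 23 were raised again with TM against pGFP at 24 h, where 9.45% of all genes were. These were targets such as *MDM2*, *BTG2* and *SESN1*, and 19 of them were on the list of HCGs induced at 6 h. In 9 genes the TM and wild type levels did not differ past the threshold, among them *ARC* and *NGFR*. In 24 genes TM was higher than wild type p53, none of them on the list of HCGs induced at 6 h. Wild type p53 raised all 123 genes of that list at least 2-fold. The selection by itself thus favours the 19 and makes the absence likely. Both contrasts share the TM libraries, so a high TM value enters both. The median log2-fold of the 24 genes against pGFP was 0.47 with TM, -0.01 with wild type p53, 0.05 with RW mutant p53 and 0.10 with p53 O6-meG. Of the 24, 13 were also higher than with RW mutant p53 by the test, against 0.211% of all genes (44 genes, either direction). That contrast has other controls but the same TM libraries. At 24 h, 8 of them were raised with TM and 2 lowered.

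Among these 24 genes, 23 rose less than 2-fold. The long non-coding RNA *LINC02432* was at 39.2, 39.9 and 39.4 CPM in p53 TM, at 21.2, 23.3 and 23.4 CPM in pGFP and at 20.5 to 20.9 CPM with wild type p53 (log2-fold 0.80 ± 0.11, SE, edgeR adjusted *P* = 7.8e-05). *LINC01419* (log2-fold 0.71 ± 0.096, SE, adjusted *P* = 0.00011) and *LINC02972* (log2-fold 0.66 ± 0.10, SE, adjusted *P* = 0.00083) rose likewise. *BTG1*, an antiproliferative relative of *BTG2*, was at 49.9, 49.7 and 49.9 CPM in p53 TM, at 34.7, 33.7 and 39.2 CPM in pGFP and at 39.4 to 42.1 CPM with wild type p53 (adjusted *P* = 0.0014). *CHMP1B*, a subunit of the membrane-remodelling ESCRT-III complex, rose by a log2-fold of 0.37 ± 0.060 (SE, adjusted *P* = 0.0016). *ZNF718* (log2-fold 0.41 ± 0.066, SE, adjusted *P* = 0.0016) and *LINC01608* (log2-fold 0.47 ± 0.077, SE, adjusted *P* = 0.0019) also rose. The next 3 were chosen for their known roles after their values were seen. *CHAC1*, a glutathione-degrading enzyme of the amino acid stress response, was at 26.9, 22.9 and 25.3 CPM in p53 TM against 13.4, 13.9 and 15.3 CPM in pGFP (adjusted *P* = 0.0086). *PCK2*, the mitochondrial phosphoenolpyruvate carboxykinase, was at 24.2, 21.9 and 23.6 CPM against 17.7, 15.6 and 17.2 CPM (adjusted *P* = 0.019). *GABARAPL1*, a component of autophagosomes, was at 52.2, 45.3 and 49.5 CPM against 40.6, 36.1 and 37.3 CPM (adjusted *P* = 0.013). Without TM replicate 2, 14 of the 24 genes still passed, and with the 2 libraries exchanged by the parentheses 0 did by edgeR.

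**Figure D4:**
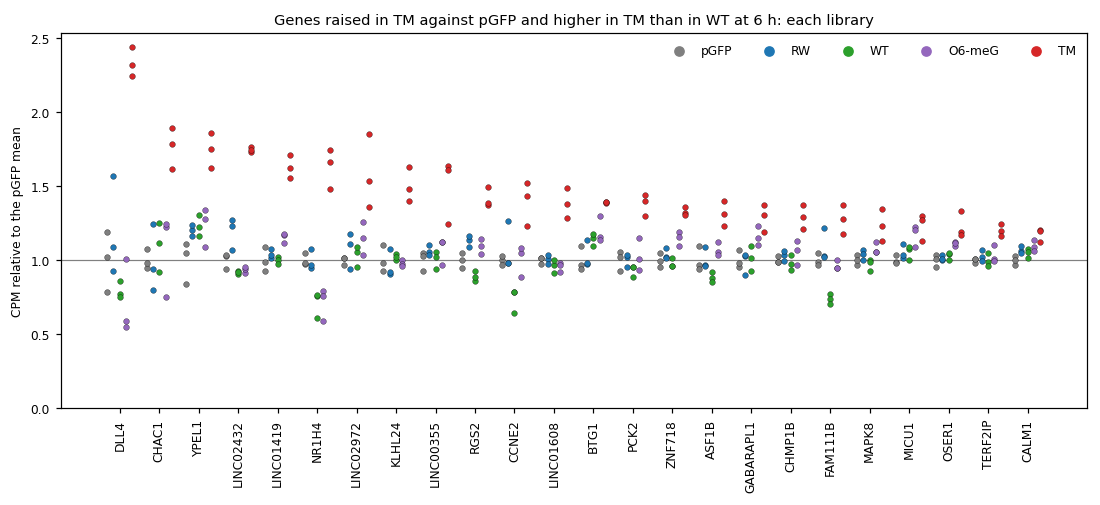
The 24 genes raised with p53 TM against pGFP and higher with TM than with wild type p53 at 6 h, each library as its CPM over the mean of the 3 pGFP libraries, coloured by group. The genes were selected for TM values above those of pGFP and wild type p53, and the RW and p53 O6-meG libraries show the levels in the groups that did not enter the selection.

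The lowered genes were few. Of the 10, 4 were also lower than with RW mutant p53 by the test, which uses the same TM libraries. The call was kept by 4 of the 10 without TM replicate 2 and by 1 with the 2 libraries exchanged, where *PRDM10* (adjusted *P* = 0.19) and *CYP1B1* (adjusted *P* = 0.70) did not pass. *PRDM10*, a zinc finger transcription factor, was at 31.6, 28.3 and 30.8 CPM in p53 TM and at 38.8, 38.2 and 41.8 CPM in pGFP (log2-fold -0.39 ± 0.065, SE, edgeR adjusted *P* = 0.0022). *CYP1B1*, a monooxygenase induced by the aryl hydrocarbon receptor, was at 15.6, 13.8 and 13 CPM in p53 TM and at 19.8, 22.9 and 20.9 CPM in pGFP (log2-fold -0.59 ± 0.13, SE, adjusted *P* = 0.033). It was lower also against RW mutant p53 (adjusted *P* = 0.015) and, with TM, at 24 h (log2-fold -0.54 ± 0.13, SE, adjusted *P* = 0.0043). At 6 h it missed the threshold without TM replicate 2 (adjusted *P* = 0.16). Of 7 genes of the aryl hydrocarbon receptor pathway tested, *CYP1B1* was the only one past the threshold, beside 0.0479% of all genes lowered. None rose by edgeR or DESeq2. At an unadjusted *P* below 0.05 by edgeR, 0 rose and 2 fell, *CYP1B1* and *AHRR*. *AHRR*, the repressor of the receptor, had a log2-fold of -0.44 ± 0.15 (SE, adjusted *P* = 0.35), and *CYP1A1*, its classical target, of -0.45 ± 0.28 (SE, adjusted *P* = 0.74). The receptor *AHR*, its partner *ARNT*, *TIPARP* and *NQO1* had log2-folds from -0.03 to 0.13 and did not pass. *CYP1A2*, *ALDH3A1* and *UGT1A6* had too few counts to be tested.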

How the data were processed

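The authors deposited raw counts per gene (STAR v2.5.3a, hg38, featureCounts of Subread v1.5.2, GENCODE v27; stranded total RNA libraries depleted of rRNA; whether reads were counted by strand is not given in the sources used here). They also deposited normalized values, the counts divided by 1 factor per library, which were not used; the column names there place the 2 conflicting libraries the other way round. The study itself tested with DESeq2 v1.20.

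All 30 libraries (10 groups of 3) were fitted together with edgeR 4.0.16 in R 4.3.3 (TMM, filterByExpr, quasi-likelihood test), which left 20875 of 39359 genes, and *P* values were adjusted over all of them (Benjamini-Hochberg). CPM used TMM-scaled library sizes. Positions and names came from GENCODE v44 (38904 genes matched, 455 not). Depth was 43217874 counts or more in the 6 libraries compared. The libraries are the study's biological triplicates. No 2 libraries of a group were alike within counting noise. The method was tested on simulated counts. The main fit used the groups alone, so its *P* values are not paired, and the replicate number entered only the fits with a replicate block. Deviations from the group means correlated at 0.118 to 0.205 in the 3 TM and pGFP pairs of the same number. In the 6 other pairs they correlated at -0.119 to -0.028. Deviations within a group of 3 sum to 0, so these negative values are no separate evidence of pairing. Over all groups at 6 h, pairs of the same number correlated at -0.046 to 0.304. Of these, 13 of 30 were over 0.1, and of the pairs of other numbers 2 of 60.

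Named were all DEGs, the 15 smallest *P* under 2-fold, listed genes past the threshold, the 2 listed genes of each p53 list that wild type p53 raised most, the aryl hydrocarbon receptor list, and *MGMT*. A gene that the rule also names is not reported here. *CDKN1A*, *APAF1*, *TNFRSF10A* and *SFN*, the genes named by position, *CHAC1*, *PCK2*, *GABARAPL1* and *DDIT3* were chosen after their values were seen. The lists and comparisons were chosen with earlier results of these data known. Alternatives were DESeq2 1.42.0, its size factors, 2 filters, smaller fits, the replicate block, other placements of the 2 libraries with conflicting titles, and omission of single libraries. Intervals cover counting error only.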

Additional observations from a re-analysis of the deposited data

How the results depend on the processing

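The 66 genes at adjusted *P* below 0.05 for p53 TM against pGFP became 182 with DESeq2, 139 with the 6 libraries alone, 233 with the libraries of 6 h alone, 109 with the replicate block, 17 with the conflicting libraries exchanged and 43 with both left out, and 26 to 44 without 1 library. All 66 kept their direction under each of the 16 alternatives in which they were tested, and *AEN*, *BTG2*, *DDB2*, ENSG00000253878.5, *FDXR*, *PLK3* and *SESN2* were among the 8 that passed in all 16. The 14 DEGs became 9 with at least 10 counts in every library, which left *MIR34AHG*, *LNCTAM34A*, *PHLDA3*, *GDF15* and *RGS4* untested, and 8 to 15 without 1 library. The 11 DEGs of TM against RW mutant p53 became 5 with that filter and 7 to 15 without 1 library, and the 21 raised HCGs 34 with the libraries of 6 h alone, 11 with the libraries exchanged and 13 to 16 without 1 library. A replicate block within the libraries of 6 h, chosen after the data were seen, gave 693 genes, 34 DEGs, 36 HCGs and 23 DEGs against RW mutant p53. Apart from the 109 genes, the replicate block over all libraries moved no count by over 1.5 times. The cause of these shifts was not tested.

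Of 779 values of single genes under alternatives, 650 kept direction and side of the threshold, 109 lost the call, 6 gained it and 14 reversed, all 14 without a call. With the libraries exchanged the log2-fold was 2.67 for *GLS2*, -0.13 for *TIPARP*, 0.08 for *AHR* and -0.02 for *ARNT*, and with at least 10 counts it was -0.01 for *ARNT*. Without 1 library it ranged from -0.12 to 0.07 for *GLS2*, -0.07 to 0.1 for *TIPARP*, -0.06 to 0.12 for *MGMT*, -0.1 to 0.05 for *AHR* and -0.01 to 0.04 for *ARNT*. With 3 libraries a group, depth limits genes with few counts, such as *RGS4* and *NGFR*, which passed in 6 and 9 of the 16.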

Other observations

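Of 9 acute stress genes 1 rose with p53 TM by edgeR, beside 0.268% of all genes. This was *ATF3*, a transcription factor of the stress response (log2-fold 0.76 ± 0.17, SE, adjusted *P* = 0.038). At an unadjusted *P* below 0.05, 5 of the 9 rose, beside 1671 of 20875 genes in either direction. All 9 had a log2-fold above 0 with TM, with a median of 0.26. The median was -0.03 with wild type p53, -0.02 with RW mutant p53 and 0.06 with p53 O6-meG. By DESeq2 3 rose with TM, and without TM replicate 2 by edgeR 2. *ATF3* was at 16.2, 9.16 and 11 CPM in p53 TM and at 7.31, 6.41 and 7.78 CPM in pGFP, and stood at 11.6 to 14.6 CPM with wild type p53. Wild type p53 raised it by edgeR (log2-fold 0.88 ± 0.17, SE, adjusted *P* = 0.00037). TM and wild type p53 did not differ past the threshold (adjusted *P* = 0.74). The paper counts *ATF3* among its HCGs with late repression by TM. *DDIT3*, the gene of the stress factor CHOP, was at 60.9, 21.5 and 34.5 CPM in p53 TM and at 21.4, 16.6 and 23.5 CPM in pGFP. TM replicate 2 lay within the pGFP range and the gene did not pass (adjusted *P* = 0.09). With wild type p53 it was at 16.2 to 24.0 CPM.

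Of 9 tested genes of the response to foreign nucleic acid, 0 passed by edgeR or DESeq2 (0 at an unadjusted *P* below 0.05), with a median log2-fold of -0.27 and 1 gene above 0. *DHX58*, a helicase of RNA sensing that is in none of the lists and was picked after its value was seen, was lowered with TM at 0.835, 1.08 and 1.18 CPM against 2.00, 2.07 and 2.08 CPM in pGFP (edgeR adjusted *P* = 0.029), and without TM replicate 2 it missed the threshold (adjusted *P* = 0.095), as it did with the 2 conflicting libraries exchanged (adjusted *P* = 0.28). Of 9 genes of alkylation and mismatch repair 0 passed by edgeR or DESeq2 (0 at an unadjusted *P* below 0.05), with a median log2-fold of 0.04.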
